A study of Mus musculus with 6 samples.

Results

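The miR-30 family was described in small RNA sequencing of mouse prefrontal cortex after 6 months of exposure to nano-polystyrene. Its members were the 5 guide strands mmu-miR-30a-5p, mmu-miR-30b-5p, mmu-miR-30c-5p, mmu-miR-30d-5p and mmu-miR-30e-5p and the 5 opposite strands mmu-miR-30a-3p, mmu-miR-30b-3p, mmu-miR-30c-2-3p, mmu-miR-30d-3p and mmu-miR-30e-3p, found by name in the deposited table. Each of the 10 names (the species prefix mmu is left out below) stood on 1 sequence, so the family made up 10 of the 1013 distinct sequences listed. All tissue came from male C57BL/6 mice, an inbred strain, 30 weeks old by the labels. The control group (CON, 3 libraries) received water, labelled 0 mg per kg, and the exposed group (TREAT_HIGH, 3 libraries, called PS-NP here) received 50 mg per kg body weight of polystyrene nanoparticles by daily oral gavage. The series was built to find miRNA biomarkers of brain injury by these particles.

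A miRNA hairpin is cut into a short duplex, of which one strand, the guide, is mostly kept in an Argonaute protein while the opposite strand is mostly degraded. The guide finds its target mRNAs chiefly through its seed, bases 2 to 8. In the miR-30 family the guide is the 5p strand, and all its guides carry the same seed and so share predicted targets; miR-30a is known to repress the autophagy gene BECN1 in human cells and to act on BDNF, a neurotrophin, in human prefrontal cortex. The mature sequences from RefSeq (GRCm38.p6) are shown because seeds and single-base differences decide which reads can be told apart. RefSeq entries were matched for 6 of the 10 members. Bases 2 to 8 are in capitals.
miR-30a-5p: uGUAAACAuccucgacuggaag
miR-30e-5p: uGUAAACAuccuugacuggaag
miR-30c-5p: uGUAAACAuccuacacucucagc
miR-30a-3p: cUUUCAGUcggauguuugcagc
miR-30e-3p: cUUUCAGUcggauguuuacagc
miR-30c-2-3p: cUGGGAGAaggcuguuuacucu

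The 5 guides shared their first 11 bases, and the seed GUAAACA stood on 6 sequences of the table, the 5 guides and miR-384-5p. The 3p strands fell into 3 seeds. UUUCAGU stood on miR-30a-3p, miR-30d-3p and miR-30e-3p, UGGGAGA on miR-30c-2-3p and its relative miR-30c-1-3p, and UGGGAUG on miR-30b-3p, with 0 other sequences of the table on these seeds. miR-30a-5p and miR-30e-5p differed at 1 base, C13U counted from the 5′ end with the miR-30a base first, and miR-30a-3p and miR-30e-3p likewise differed at 1 base, G18A.

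As listed by the authors, 4 of the 5 guides were longer at the 3′ end than their named form, against 46 of the 330 mouse 5p sequences (13.9%) in the whole table. All 5 3p strands were listed exactly as named. The listed forms of 3 guides are shown, with the bases added to the RefSeq form in capitals. Each listed form was found whole in its RefSeq hairpin, and whether the added bases were cut from the hairpin or joined on later was not tested.
miR-30a-5p as listed: tgtaaacatcctcgactggaagCT
miR-30e-5p as listed: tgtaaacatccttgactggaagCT
miR-30c-5p as listed: tgtaaacatcctacactctcagcT
The additions left the seed as it was. The sources used here do not say whether reads with other ends were added to an entry.

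The hairpins lie in several places of the genome (GRCm38.p6, RefSeq). Mir30a holds miR-30a-5p at chromosome 1, 23272274 to 23272295, and miR-30a-3p at 23272315 to 23272336 on the plus strand, where no host gene was found on that strand in GENCODE M21. Mir30c-2 follows on the same strand, with miR-30c-5p at 23291714 to 23291736 and miR-30c-2-3p at 23291754 to 23291775, inside an exon of the lincRNA Gm27028. On chromosome 4, minus strand, an intron of Nfyc, which encodes a subunit of the transcription factor NF-Y, holds Mir30e (miR-30e-5p at 120772660 to 120772681, miR-30e-3p at 120772618 to 120772639). The same gene's intronic sequence holds Mir30c-1 with a second copy of miR-30c-5p at 120769584 to 120769606. The counts cannot separate the copies of miR-30c-5p.

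Library totals, summed over the listed miRNA sequences and not over all sequenced reads, ran from 6170649 to 9905745 reads. Of the 1013 sequences, 639 had at least 10 reads in at least 3 libraries and were tested, all 10 members among them. Levels below are in CPM, counts scaled to a common library size with TMM factors between libraries; since a read spans a whole miRNA, no correction for length was needed, but ligation can capture miRNAs unequally and its part in level differences between miRNAs was not tested. The cortex label was checked on 8 neuronal miRNAs (miR-124-3p, miR-9-5p and others), whose summed level was 184375 to 195284 CPM in controls and 155830 to 214476 CPM with PS-NP. The liver miRNA miR-122-5p reached at most 8.25 CPM, and 2 of 4 hindbrain and spinal cord markers were listed, at a sum of at most 41.8 CPM. Endothelial markers (2 of 2 listed) summed to 1487 to 1967 CPM in controls and 1991 to 2535 CPM with PS-NP; these groups did not overlap, and the part of vessel content in the results below was not tested. The summed markers of oligodendrocytes, microglia and leukocytes, red cells, epithelium and muscle overlapped between groups. In tissue RNA, fewer cells of a type and less RNA per cell cannot be told apart.

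The miR-30 guides took 5.49% ± 0.752 of the reads of all listed sequences in control cortex and 5.50% ± 0.534 with PS-NP (SD, n = 3 libraries each). Nearly all of this came from a pair of members. miR-30c-5p, the sixth most abundant of the tested sequences, was 59.1% ± 0.793 of the guide reads in controls and 58.5% ± 1.29 with PS-NP, and miR-30d-5p was 32.6% ± 0.923 and 32.1% ± 1.48. The other guides were minor: miR-30a-5p held 4.23% ± 0.454 of guide reads in controls, miR-30e-5p 2.09% ± 0.336 and miR-30b-5p 2.00% ± 0.181.

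**Figure D1:**
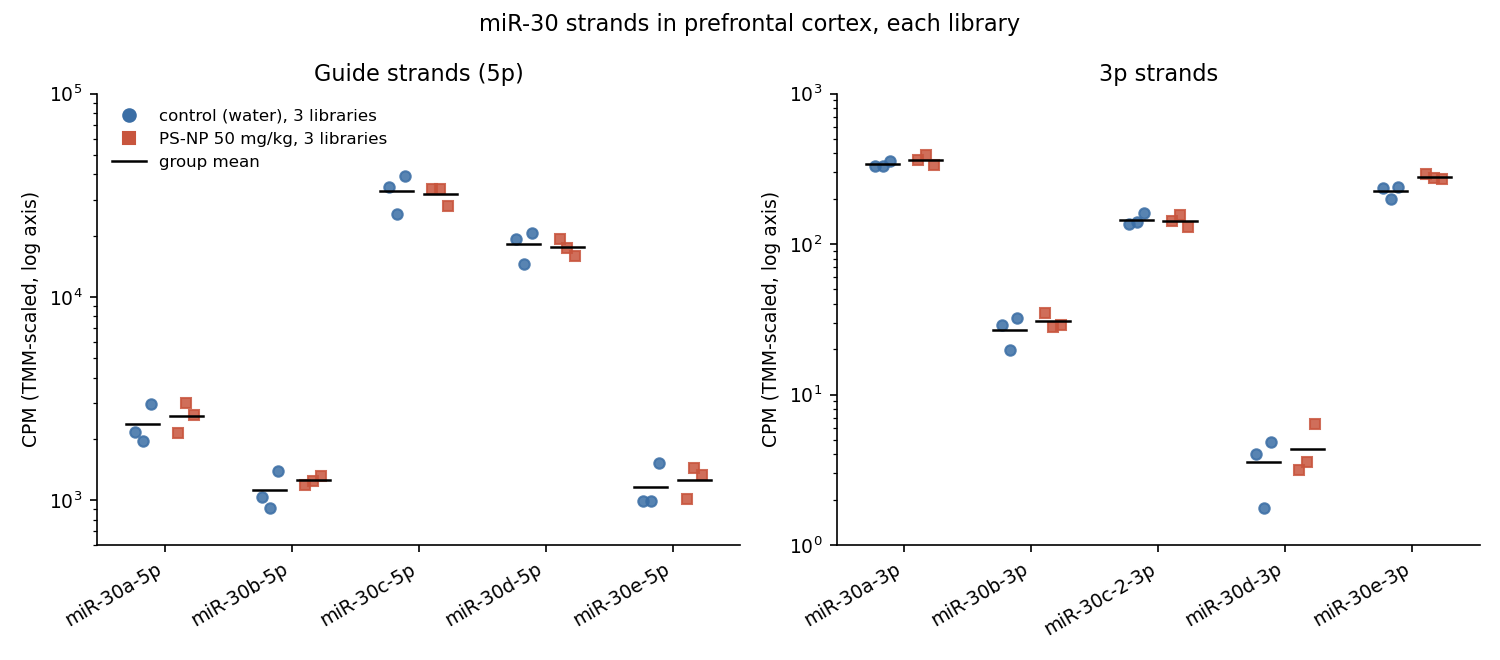
CPM (TMM-scaled, log axis) of the 5 guide strands and the 5 3p strands in each of the 6 libraries; circles are control libraries, squares PS-NP libraries and black lines group means. The guides spread over a wide range, led by miR-30c-5p and miR-30d-5p, the 3p strands are led by miR-30a-3p and miR-30e-3p, and groups overlap in every member but miR-30e-3p.

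Among the guides, miR-30c-5p stood at 34529, 25512 and 39121 CPM in control libraries 1 to 3 and at 33966, 33710.0 and 28074 CPM in PS-NP libraries 1 to 3. All PS-NP values lay inside the control range, with a log2 difference (PS-NP minus control) of −0.05 (SE 0.19, 95% interval −0.49 to 0.39). Its partner in abundance, miR-30d-5p, stood at 19234, 14461 and 20699 CPM in controls and 19256, 17298 and 15894 CPM with PS-NP. Here too the PS-NP values lay inside the control range (log2 difference −0.05, SE 0.18, interval −0.46 to 0.36). The ratio of these 2 guides barely moved between libraries: there were 1.82 ± 0.0656 miR-30c-5p reads per miR-30d-5p read in controls and 1.83 ± 0.106 with PS-NP (SD, n = 3 each).

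The minor guides had slightly higher means with PS-NP. miR-30a-5p stood at 2150.1, 1957 and 2973 CPM in controls and 2137, 2996 and 2614 CPM with PS-NP. PS-NP library 2 stood just above the highest control and the others inside the control range, and the log2 difference was 0.13 (SE 0.21, interval −0.34 to 0.60). miR-30e-5p, which differs from it at 1 base, stood at 984.8, 990.2 and 1513 CPM in controls and 1013, 1445 and 1326 CPM with PS-NP; its log2 difference was 0.12 (SE 0.22, interval −0.39 to 0.63). The proportion between them varied little, with 2.04 ± 0.123 miR-30a-5p reads per miR-30e-5p read in controls and 2.05 ± 0.0720 with PS-NP. miR-30b-5p stood at 1036, 913.6 and 1391 CPM in controls and 1185, 1245 and 1315 CPM with PS-NP. The PS-NP libraries sat closer together than the controls and inside their range (log2 difference 0.16, SE 0.19, interval −0.27 to 0.60).

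The guides' differences depended on single libraries. Without control library 3, the highest for 4 of the 5 guides, the log2 difference became 0.33 for miR-30a-5p, 0.35 for miR-30e-5p, 0.35 for miR-30b-5p, 0.085 for miR-30c-5p and 0.050 for miR-30d-5p. Without control library 2, the lowest for 4 of the 5 guides, it became −0.21 for miR-30c-5p and −0.20 for miR-30d-5p. Leaving out PS-NP library 2 gave −0.0032 for miR-30a-5p and −0.0043 for miR-30e-5p. The guides also had a lower mean GC content than all tested sequences (44.0% against 50.6%), although miR-30d-5p stood at 50.0%, and log2 differences ran against GC content across the 639 sequences (Spearman's rho −0.467; sequences of 1 library share its composition and are not independent). After each library's GC trend was removed, the log2 difference was 0.078 for miR-30a-5p, 0.064 for miR-30b-5p, 0.020 for miR-30e-5p, −0.14 for miR-30c-5p and −0.059 for miR-30d-5p.

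The 3p strands were far less abundant and were ordered differently from their guides. miR-30a-3p made up 45.9% ± 1.56 of the reads of the 5 3p strands in controls and 44.3% ± 1.33 with PS-NP, although its guide was a minor one. miR-30e-3p followed at 30.4% ± 1.55 and 34.1% ± 1.71, and miR-30c-2-3p at 19.6% ± 1.06 and 17.4% ± 0.874. miR-30b-3p held 3.63% ± 0.649 and 3.72% ± 0.431. miR-30d-3p, opposite the second most abundant guide, held 0.472% ± 0.191 and 0.537% ± 0.245.

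**Figure D2:**
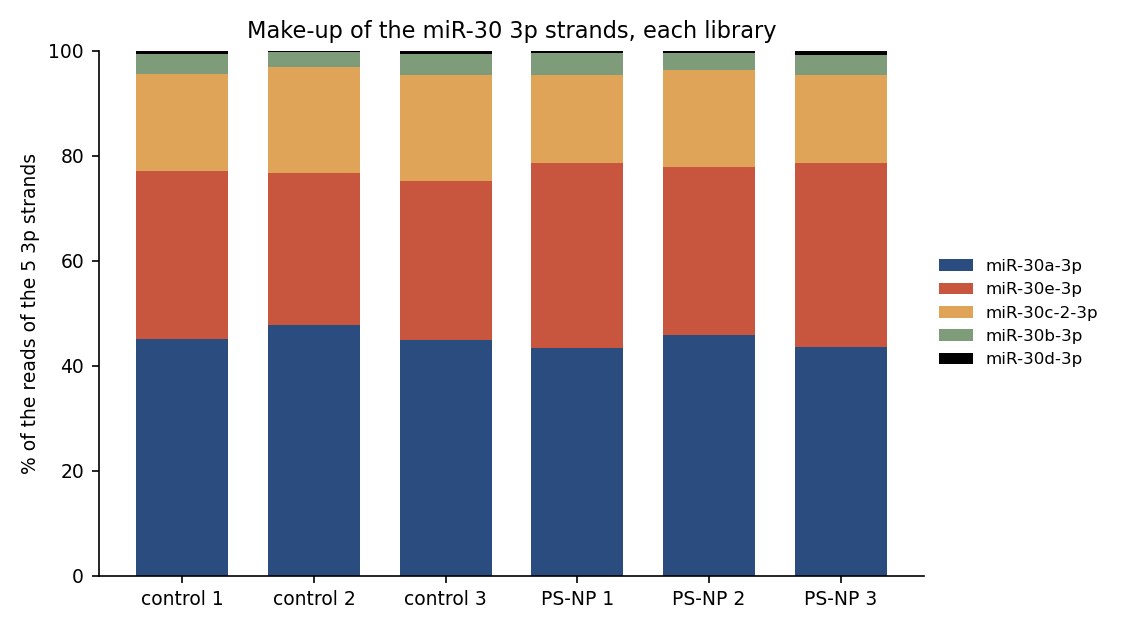
Share (percent) of each 3p strand in the summed reads of the 5 miR-30 3p strands, 1 bar per library. miR-30e-3p takes 29.0% to 32.1% in the control libraries and 32.1% to 35.1% in the PS-NP libraries, while miR-30a-3p stays the largest share in all 6.

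miR-30e-3p was the member whose groups did not overlap. It stood at 236.1, 200.1 and 238.7 CPM in control libraries 1 to 3 and at 293.9, 274 and 272.1 CPM in PS-NP libraries 1 to 3. All 3 PS-NP libraries lay above all controls, which held for 5.01% of all tested sequences, while the reverse held for 4.54% (9.55% in either direction). The ratio of means was 1.24 and the log2 difference 0.32 (SE 0.16, interval −0.06 to 0.69), with an unadjusted p of 0.0878 and an adjusted p of 0.906 by edgeR over all 639 sequences, so it did not pass the test. Leaving out each of the 6 libraries moved the log2 difference from 0.23 to 0.36, and it was 0.26 with the GC trend removed. Its share among the 3p strands, which needs no scaling between libraries, was 32.1%, 29.0% and 30.2% in controls and 35.1%, 32.1% and 35.1% with PS-NP; the groups just touch at 32.1%, since control library 1 stood at 32.08% and PS-NP library 2 at 32.14%. Set against miR-30a-3p, which differs from it at 1 base, there were 1.51 ± 0.122 miR-30a-3p reads per miR-30e-3p read in controls and 1.30 ± 0.107 with PS-NP (SD, n = 3 each), a difference that was not tested.

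The remaining 3p strands overlapped between groups. miR-30a-3p stood at 331.8, 329.1 and 354.8 CPM in controls and 364.3, 390.4 and 337.1 CPM with PS-NP. Only PS-NP library 3 fell inside the control range, and the log2 difference was 0.10 (SE 0.16, interval −0.25 to 0.46). miR-30c-2-3p stood at 135, 139.1 and 159.7 CPM in controls and 142.1, 156.5 and 129.8 CPM with PS-NP. PS-NP library 3 lay below the controls and the others inside their range, and the log2 difference was −0.02 (SE 0.17, interval −0.42 to 0.38). miR-30b-3p stood at 29.0, 19.9 and 32.1 CPM in controls and 34.8, 28.1 and 28.9 CPM with PS-NP, with control library 2 low, and the log2 difference of 0.18 (SE 0.24) became −0.0033 without that library.

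miR-30d-3p was close to the limit of what these libraries can measure. It had 35, 12 and 30 reads in controls and 21, 32 and 70 reads with PS-NP. The 95% exact Poisson intervals, which cover counting error only, were 6.20 to 21.0 reads for control library 2 and 54.6 to 88.4 reads for PS-NP library 3, so these 2 libraries differed by more than counting error while the groups overlapped. On the CPM scale it stood at 3.55 ± 1.60 in controls and 4.35 ± 1.73 with PS-NP (SD, n = 3 each), and its log2 difference of 0.31 had the widest interval of the family (SE 0.48, interval −0.79 to 1.40). The log2 difference turned to −0.091 when PS-NP library 3 was left out.

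**Figure D3:**
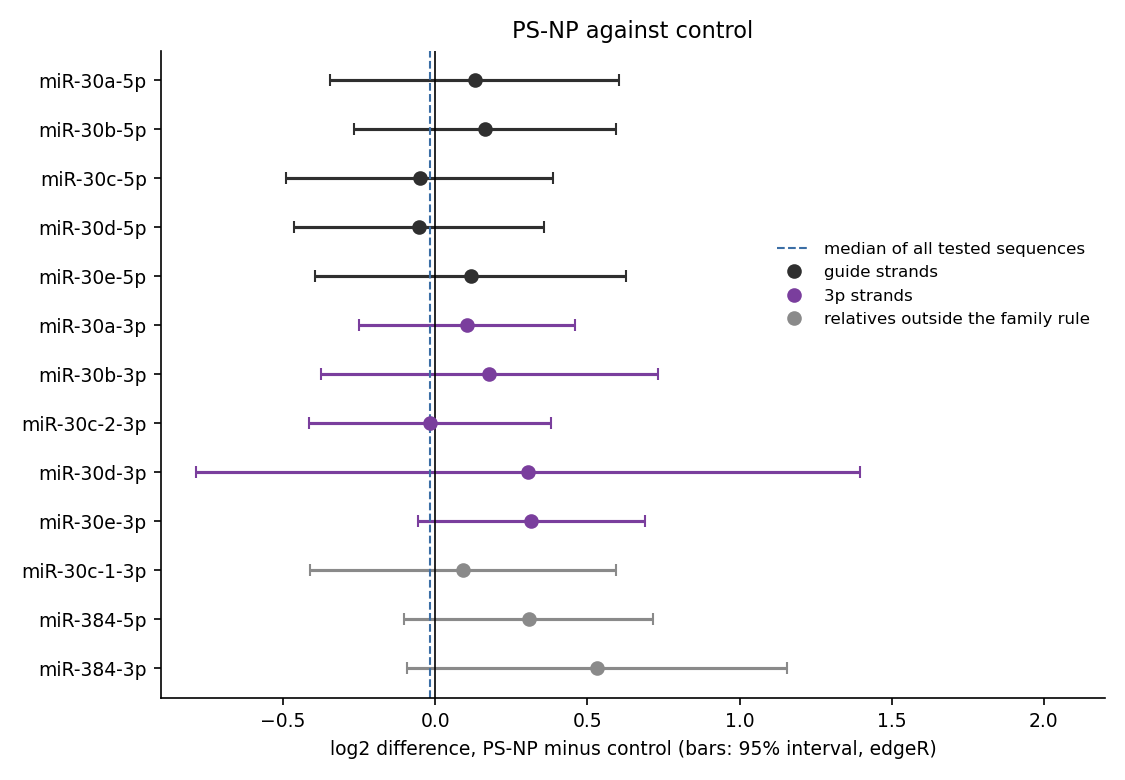
Log2 difference (PS-NP minus control, edgeR) with its 95% interval for the 5 guides, the 5 3p strands and 3 relatives outside the family rule; the dashed line is the median of all 639 tested sequences, −0.02. All 13 intervals include 0, and miR-30e-3p and miR-384-3p come nearest to lying above it.

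Over the family, 0 of 10 members passed the adjusted threshold of 0.05 (edgeR quasi-likelihood test, Benjamini-Hochberg adjustment over 639 sequences), where 0% of all tested sequences passed. At an unadjusted p under 0.05 there were also 0 of 10, against 2.35% of all sequences, and DESeq2 and limma-voom called 0 of 10. The log2 difference was above 0 in 7 of 10 members, 3 of 5 guides and 4 of 5 3p strands, where it was above 0 in 47.9% of all sequences. The median was 0.12 for the family, against −0.02 for all sequences tested. Members ran from −0.05 to 0.32, and the 95% interval of a member reached a median of 0.43 log2 units to either side. Changes smaller than that could not be seen in most single members at this number of libraries. The intervals are not adjusted over the 639 sequences, so a change had to be larger still to pass the adjusted threshold.

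Summed over the 5 guides, the level was 57935, 43834 and 65698 CPM in controls and 57556, 56694 and 49223 CPM with PS-NP. The PS-NP libraries lay inside the control range, and the log2 difference of the sums was −0.02 (SE 0.19), moving from −0.19 without control library 2 to 0.11 without control library 3. Summed over the 5 3p strands, the level was 735.9, 689.9 and 790.1 CPM in controls and 838.2, 852.5 and 774.2 CPM with PS-NP. The third PS-NP library fell below the third control, so the groups overlapped, and the log2 difference of the sums was 0.15 (SE 0.07). It ran from 0.10 without control library 2 to 0.20 without control library 3. Control library 2 was the lowest library for 4 of 5 guides and also for 4 of 5 3p strands. These sums over members chosen by name were not tested.

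The question posed by the strands was whether guide and 3p strands moved differently. In the guide reads per 3p read there was 78.7, 63.5 and 83.1 in controls and 68.7, 66.5 and 63.6 with PS-NP, which overlap only through control library 2. Without that library the log2 difference of this ratio was −0.29, with all libraries −0.17 (SE 0.12), and without control library 3 −0.09. The ratio needs no scaling between libraries, but it mixes hairpins whose strands are kept in very different proportions.

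Hairpin by hairpin, the ratio of strands spanned 3 orders of magnitude within the family, as given here in reads of the guide per read of the 3p strand with 1 read added to each. miR-30e had 4.17, 4.95 and 6.34 in controls and 3.44, 5.27 and 4.87 with PS-NP. miR-30a had 6.48, 5.94 and 8.38 in controls and 5.86, 7.67 and 7.75 with PS-NP. In both hairpins the 3p strand was thus a sizeable product, and the groups overlapped. Their guides differ at 1 base and so do their 3p strands. The strands of miR-30b and miR-30d, without a matched RefSeq entry, were not compared by sequence. miR-30b had 41.4 ± 5.23 in controls and 41.2 ± 6.32 with PS-NP, and miR-30c-5p had 228 ± 39.0 and 223 ± 13.4 for each read of miR-30c-2-3p (SD, n = 3 each). As miR-30c-5p comes from a pair of hairpins, its reads were also set against both 3p strands together, which gave 192 ± 34.3 in controls and 186 ± 11.1 with PS-NP.

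miR-30d lay at the far end, with 4620, 7605 and 4140 guide reads per 3p read in controls and 5834, 4709 and 2472 with PS-NP. These ratios rest on only 12 to 70 3p reads per library, and the 7605 on 12, so their counting error is wide. Of the 182 mouse hairpins with both strands tested, miR-30d had the highest mean log2 ratio of 5p to 3p reads in controls, 12.4. Hairpins with a strand below the read filter were not ranked. The lead was narrow by the means, as miR-383 had 12.0. That mean rested on control library 1, where miR-383 stood higher (14.6 against 12.2). A ratio that high depends strongly on the 1 read added to the 3p strand. In control libraries 2 and 3 miR-383 stood below miR-30d. With PS-NP let-7g had a mean of 12.1 and miR-30d 12.0. By the control means of these log2 ratios the other hairpins of the family stood lower. miR-30c-2 ranked 21, miR-30b 38, miR-30a 66 and miR-30e 71. The relative miR-30c-1, outside the family rule, ranked 9. Both miR-30c ranks use all miR-30c-5p reads, which the hairpins share, so neither rank is that of 1 hairpin alone. Over all 182 hairpins 54.4% had more 5p than 3p reads, and the median hairpin had 12.95 reads of its more abundant strand per read of the other, more than miR-30a and miR-30e and less than the other members.

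**Figure D4:**
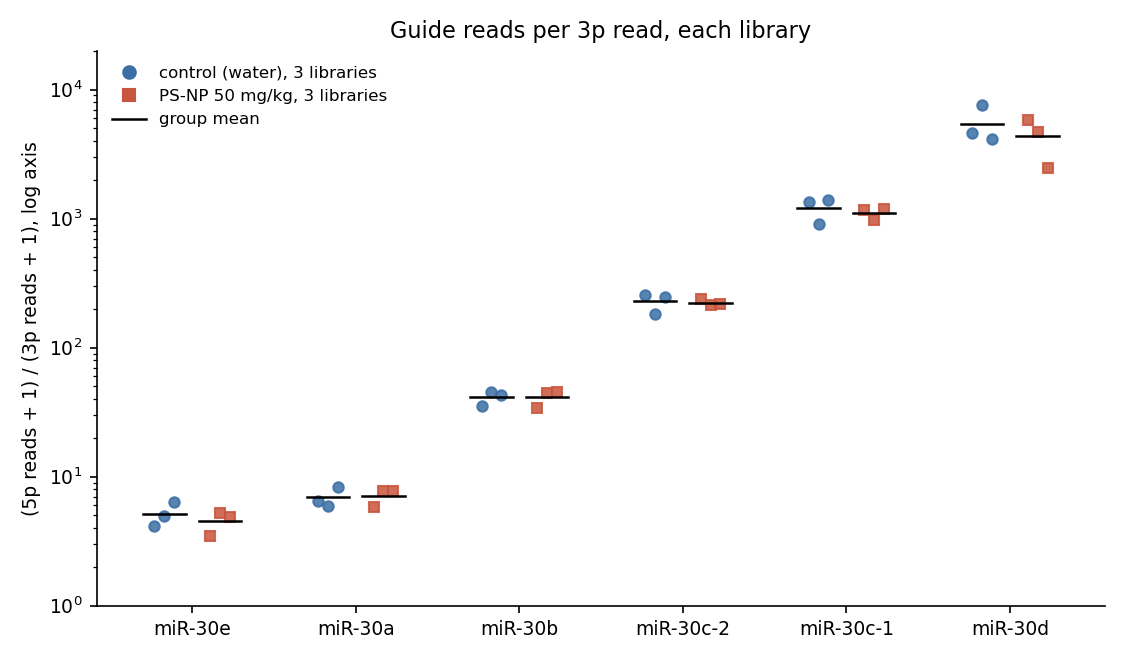
Guide reads per 3p read (1 read added to each, log axis) of the miR-30 hairpins in each library; circles are controls, squares PS-NP and lines group means. The hairpins order from miR-30e to miR-30d in the same way in both groups, and the 2 groups overlap in each; miR-30c-1 uses the miR-30c-5p reads that it shares with miR-30c-2.

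Tested with limma over the 182 hairpins, 0 of the 5 miR-30 arm ratios passed an adjusted threshold of 0.05 (smallest adjusted p 0.920), where 0% of all hairpins passed. At an unadjusted p under 0.05 there were 0 of 5, against 4.4% of all hairpins, and 0 of 5 ratios had groups that did not overlap, against 11%. The log2 ratio of guide to 3p was lower with PS-NP in 4 of 5 hairpins, against 41.8% of all hairpins, with a median difference of −0.01 for miR-30 and 0.05 for all hairpins. The difference was −0.37 (SE 0.38) for miR-30d, −0.19 (SE 0.27, interval −0.81 to 0.43) for miR-30e, −0.01 (SE 0.22) for miR-30c-2, −0.01 (SE 0.23) for miR-30b and 0.04 (SE 0.24) for miR-30a. For the miR-30e hairpin the controls and PS-NP libraries thus overlapped in the strand ratio, while they did not in the level of its 3p strand.

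**Figure D5:**
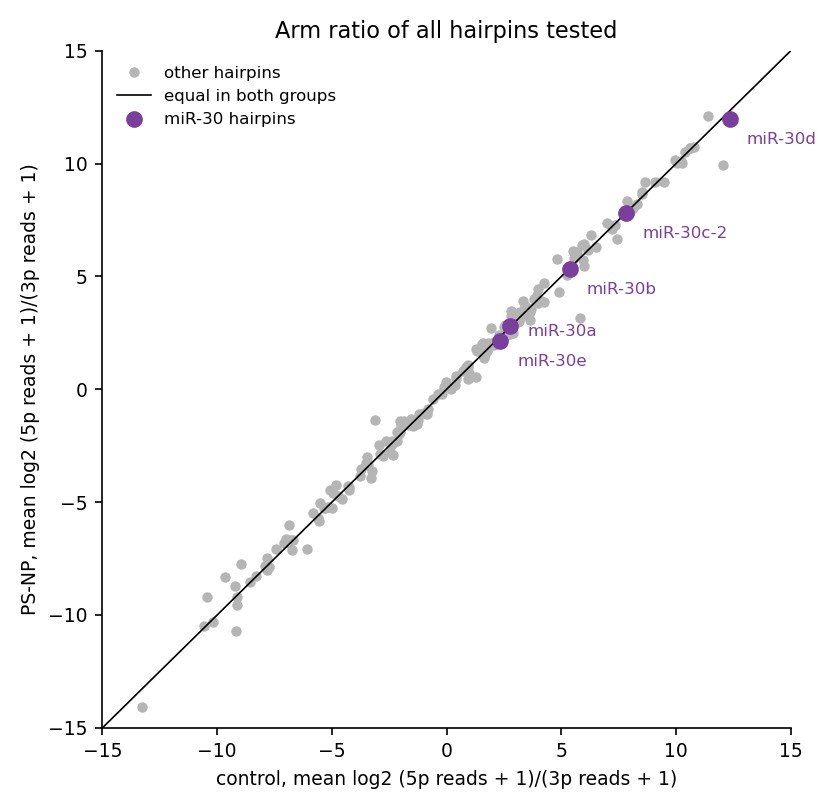
Mean log2 ratio of 5p to 3p reads (1 read added to each) in control against PS-NP libraries for the 182 hairpins with both strands tested, miR-30 hairpins in purple. The miR-30 hairpins lie along the line of equality and spread from 2.34 (miR-30e) to 12.4 (miR-30d) in controls.

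Relatives of the family that the rule leaves out were read beside it. miR-30c-1-3p, from the hairpin that shares the Nfyc intron host with miR-30e, stood at 25.4, 27.9 and 27.9 CPM in controls and 29.1, 34.2 and 23.4 CPM with PS-NP. Its groups overlapped, and the log2 difference of 0.09 (SE 0.22) turned to −0.063 without PS-NP library 2. There were 5.34 ± 0.373 miR-30c-2-3p reads per miR-30c-1-3p read in controls and 5.01 ± 0.499 with PS-NP. miR-30f was looked for by name and was not among the relatives found.

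miR-384-5p carries the seed of the miR-30 guides on an otherwise different sequence, from Mir384 on chromosome X (105344332 to 105344354, minus strand), and is known for a part in long-term potentiation in rodent hippocampus.
miR-384-5p: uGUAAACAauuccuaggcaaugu
It stood at 199.4, 193.4 and 230.0 CPM in controls and 261.9, 219.4 and 289.1 CPM with PS-NP. PS-NP library 2 fell below control library 3, so the groups overlapped, and the log2 difference was 0.31 (SE 0.18, interval −0.10 to 0.72). The 3p strand of that hairpin, miR-384-3p, stood at 15.3, 17.1 and 17.7 CPM in controls and 17.7, 21.8 and 32.8 CPM with PS-NP. Its log2 difference of 0.53 (SE 0.27, interval −0.09 to 1.16) was 0.22 without PS-NP library 3, while leaving out PS-NP library 1 instead gave 0.71 (unadjusted p 0.0277, adjusted p 0.719 by edgeR). Both strands are low in GC (34.8% and 27.3%), and with the GC trend removed the log2 differences were 0.13 for miR-384-5p and 0.24 for miR-384-3p. Of the 3 relatives tested, 0 passed, against 0% of all sequences. A log2 difference above 0 was seen in 3 of 3, against 47.9% of all sequences, but both miR-384 strands come from 1 hairpin. Counted by the shared seed, miR-384-5p added little, as its 208 ± 19.6 CPM in controls compare with 55822 ± 11084 CPM for the 5 guides together.

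The miRNAs whose level followed the guide sum most closely over the 6 libraries, among 220 non-members of at least 100 CPM, were miR-133a-3p (Pearson's r 0.963, Spearman's rho 0.943), miR-383-5p (0.951 and 1) and miR-541-5p (0.947 and 1). Without the libraries farthest from the median guide sum, control 2 and PS-NP 3, r over the remaining 4 was 0.721, 0.776 and 0.986. For the 3p sum they were miR-378a-3p (r 0.972, rho 1), let-7j (0.968 and 1) and let-7g-5p (0.968 and 0.943), with r of 0.936, 0.981 and 0.911 without control library 2 and PS-NP library 2. These are the highest of 220 values each, given as a measure of likeness over shared libraries and without a test.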

How the data were processed

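Total RNA of prefrontal cortex was made into TruSeq Small RNA libraries and sequenced on an Illumina HiSeq instrument, and ACGT101-miR removed adapter dimers, junk, low complexity reads, other RNA families and repeats, per the labels' protocols. The sources used here do not state mapping settings, genome build or miRBase release. The raw columns are estimated counts deposited by the authors per entry; reads shared by entries had been divided, and after summing entries of 1 sequence 14 of 30 guide values and 28 of 30 3p values of the family were whole (within 1e-06), so part of a guide's reads may belong to a relative. The norm columns hold the authors' normalized signal, raw times 1 factor per library (0.714 to 1.27), and served only as an alternative scaling. Another 3 lines were not analysed here.

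Sums per sequence were rounded. The 639 sequences that reached 10 reads in 3 or more libraries were tested with edgeR 4.0.16 (R 4.3.3): TMM factors 0.863 to 1.11, quasi-likelihood test, Benjamini-Hochberg adjustment over all of them, common biological coefficient of variation 30.6%. Intervals are 95%. Arm ratios, log2 of (5p reads + 1)/(3p reads + 1), were tested with limma 3.58.1 over 182 hairpins. Tested on simulated data for the comparison of 639 sequences, the edgeR step recovered 53% of 2-fold and 95% of 4-fold changes. In it 100 sequences changed 2-fold, 100 changed 4-fold and 439 did not change. With fewer true changes the adjusted threshold is harder to pass, so these rates can overstate what the real comparison could find. Alternatives were DESeq2 1.42.0, limma-voom, other scalings, filters and summing, a linear GC trend removed from each library, a block for library number, a pseudocount of 10 reads and each library left out.

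Groups came from the sample titles. Nothing in the labels says that the libraries came from separate animals, so the spread behind the p-values is that between libraries and may be technical. The named miRNAs were the members, other sequences named miR-30, those with the guides' seed, and the 3 non-members most like each strand sum. Members and lists were chosen with earlier results of these data known.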

Additional observations from a re-analysis of the deposited data

Results flagged for a closer look

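A sequence outside the main test was named for the pig miR-30a-3p. It was listed at 0 reads in all 3 control libraries. In PS-NP libraries 1, 2 and 3 it was listed at 16, 9 and 7 reads, above the values listed for the controls. It starts 1 base into mouse miR-30a-3p, which shifts its seed to UUCAGUC, and it was not found in the RefSeq Mir30a hairpin. It had too few reads for the main test. With no filter beyond 1 read in 1 library, all 1013 sequences were tested by edgeR and 0 passed. Over the 1013 sequences, 3 were at 0 in all controls and above 0 in all PS-NP libraries, and 2 showed the opposite. Of the 3981 whole values above 0 of sequences on 1 entry, 18 were under 5 and 256 were exactly 5. Whether low counts had been listed as 0 was not tested, so a listed 0 need not mean that no read was found. No upper limit is therefore given for the 0 values.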

How the results depend on the processing

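No sequence, no miR-30 member and no miR-30 arm ratio passed under any alternative run (0 calls in each). The smallest adjusted p of a member was 0.747 over 11 other settings, and 0.751 as each library was left out. At an unadjusted p under 0.05 there were 15 of 639 sequences with edgeR, 15 of 639 with DESeq2 and 17 of 639 with limma-voom. There were 9 of 639 with library totals, 9 of 401 at a mean of at least 100 reads and 29 of 1013 with no filter beyond 1 read. Leaving out 1 library gave 6 of 620 (without control library 1) to 38 of 630 (without PS-NP library 1). It gave 10 of 626 without control library 2 and 30 of 632 without control library 3. In each of these 0 members were among them. Library totals turned the direction of miR-30c-2-3p (0.0085) and of the summed guides (0.0045). miR-30d-3p had a larger log2 difference than miR-30e-3p in some settings, such as limma-voom (0.40 against 0.32) and library totals (0.40 against 0.35). Leaving out 1 library at a time turned the sign of 8 sequences, whose log2 differences were −0.0032 to 0.33 for miR-30a-5p, −0.0033 to 0.32 for miR-30b-3p, −0.21 to 0.085 for miR-30c-5p, −0.20 to 0.050 for miR-30d-5p, −0.091 to 0.57 for miR-30d-3p, −0.10 to 0.056 for miR-30c-2-3p, −0.0043 to 0.35 for miR-30e-5p and −0.063 to 0.20 for miR-30c-1-3p. The sign of miR-30d-3p also turned without control library 2 (−0.016), and those of miR-30c-5p (0.017) and miR-30c-2-3p (0.028) without PS-NP library 3. The cause was not tested. A group of 2 libraries left by this is assumed to vary like the group of 3. Samples with the same number did not consistently deviate together, with correlations of 0.374, 0.151 and −0.168. Samples with different numbers had correlations from −0.454 to 0.416. The numbers were therefore not used as pairs in the main test. With the replicate block 0 sequences passed and 32 had an unadjusted p under 0.05 by edgeR, and with the GC trend also removed 15 did. Depth limited miR-30d-3p, with 12 to 70 reads, which could not be fitted at a mean of at least 100 reads because that filter removes it.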
